A study of Mus musculus with 9 samples.

Results

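The genes described here are 10 targets and components of the unfolded protein response (UPR) of the endoplasmic reticulum (ER): Xbp1, Hspa5, Dnajb9, Sdf2l1, Hyou1, Pdia4, Creld2, Manf, Herpud1 and Derl3. They were taken by name, and each was found once among the 32285 gene identifiers of the table of normalized counts. All 10 had a mean of at least 10 over the libraries and were among the 12100 genes tested. The RNA came from frozen, powdered whole livers of Tet-OFF mice, in which a ubiquitous CAG-CreERT2 transgene, inserted by piggyBac (PB), allows tamoxifen to remove a stop cassette before tTA at Rosa26, and tTA then drives a tetO-Venus-ires-mCherry reporter at Rosa26. All 3 groups received tamoxifen. The control group is labelled with tamoxifen alone, the Dox group also received doxycycline hyclate and the Tc group also received tetracycline hydrochloride, both at 2 mg/mL in sucrose-supplemented drinking water for 7 days from an age of 4 weeks, with 3 libraries per group. The paper describes the mice given Dox or Tc for RNA-seq as male. Since both antibiotics also act on tTA, an effect of the drug and an effect of reporter shutdown cannot be told apart in these groups. Dox and Tc share the tetracycline ring core and differ in where a hydroxyl group sits on it.

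The UPR is the answer of a cell to unfolded protein in the ER. The sensors Ire1 (Ern1), Perk (Eif2ak3) and Atf6 sit in the ER membrane, and their activation leads to splicing of Xbp1 mRNA, to reduced translation with synthesis of Atf4, and to release of an Atf6 fragment that enters the nucleus. Spliced Xbp1 and Atf6 raise transcription of chaperones, disulfide isomerases and genes of ER-associated degradation (ERAD), many of them through ER stress response elements in their promoters. Hepatocytes secrete most plasma proteins and hold these genes at high basal levels.

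Depth was 7426136 to 12183041 reads on genes per library. For genes with libraries 1 and 2 more than 2-fold apart, library 3 mostly took a value within their span. It did so for 501 of 586 such genes in controls, 4139 of 4264 with Dox and 962 of 1022 with Tc. The genes of these counts were picked because libraries 1 and 2 differed, and a separate liver with intermediate levels would give such counts too. Among the 10 UPR genes, at any distance of libraries 1 and 2, library 3 lay within their span for 7, 8 and 7. The methods describe the libraries of a group as independent samples, the labels do not tie them to animals, and whether RNA or reads were shared between libraries was not tested. If they were, adjusted p-values from all 9 libraries would be too small, so the main results are also given without libraries 3. Hepatocyte transcripts were abundant in every library, with Alb alone at 2.99% (Dox library 2) to 12.8% (control library 1) of reads on genes. In whole liver, fewer cells of a type and less RNA per cell cannot be told apart.

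Promoter windows from RefSeq (GRCm38.p6, 250 bases before to 50 after the start site) were at hand for 8 of the 10 genes and were searched on both strands for 3 elements. The ER stress response element ERSE, written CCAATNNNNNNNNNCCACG, was found in Hspa5, Creld2 and Derl3 and in 0.119% of all 32851 promoter windows. ERSE-II, written ATTGGNCCACG, was found in Herpud1 and in 0.0365% of all windows. The unfolded protein response element TGACGTGG was found in 0 of the 8 genes and in 0.676% of all windows. The CCAAT of ERSE and the ATTGG of ERSE-II are the same letters on opposite strands, and that pentamer alone was in 37.4% of windows. The 30 bases around each match are shown on the strand of the gene, with the element in capitals, since these are the letters by which the UPR transcription factors are known to act. The Hspa5 match began 65 bases before the start site (chr2:34772020-34772049, plus strand), the Herpud1 match 52 bases before it (chr8:94386368-94386397, plus strand), the Derl3 match 156 bases before it (chr10:75893237-75893266, plus strand) and the Creld2 match 126 bases before it (chr15:88819515-88819544, plus strand). In Derl3 and Creld2 the element read on the opposite strand from the gene, so that it appears as its reverse complement.
Hspa5: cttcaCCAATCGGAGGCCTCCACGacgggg
Herpud1: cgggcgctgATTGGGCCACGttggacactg
Derl3: tctacCGTGGGACTTCCCCATTGGctagcc
Creld2: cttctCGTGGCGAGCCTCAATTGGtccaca

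In the limma model of all 9 libraries, 0 of the 10 UPR genes passed an adjusted p of 0.05 in any of the 3 comparisons. Xbp1, Sdf2l1, Pdia4 and Derl3 were lower in every Dox library than in every control library, and Herpud1 was higher. With Tc, Xbp1, Sdf2l1 and Herpud1 were higher in every library than in the controls. Hspa5, the most studied UPR chaperone, was within 0.09 of no difference on the log2 scale in all 3 comparisons. The spread between libraries of a drug group was wide: the highest library exceeded the lowest by a median of 2.20-fold over the 10 genes with Dox, 1.70-fold with Tc and 1.35-fold in controls, against 1.66, 1.27 and 1.24 over all genes tested.

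Over all genes, limma called 8.41% of the 12100 genes for Dox against control, 0.182% for Tc against control and 0.231% for Dox against Tc. At an unadjusted p under 0.05, limma gave 4, 1 and 5 of the 10 UPR genes, against 29.1%, 11.7% and 21.7% of all genes. DESeq2 on the whole reads recovered from the normalized counts called 2 UPR genes with Dox (Herpud1 and Derl3), 1 with Tc (Derl3) and 4 between the drugs (Xbp1, Sdf2l1, Pdia4 and Derl3), against 18% (2175), 2.86% (346) and 8.79% (1063) of all genes. edgeR on the same reads called 0 in each comparison and had 4, 2 and 5 UPR genes at an unadjusted p under 0.05. The shares of all genes in edgeR are not given here. Without libraries 3, limma called 0 genes of any kind and had 0, 0 and 2 UPR genes (Sdf2l1 and Derl3, between the drugs) at an unadjusted p under 0.05, against 8.6%, 1.98% and 3.75% of all genes. DESeq2 without libraries 3 called 0, 0 and 1 UPR gene (Derl3, between the drugs), against 1.2%, 0.0744% and 0.264% of all genes. Across the lists of ER, stress and heat shock genes described further on, it called only Atf3 with Dox and Trib3 between the drugs. The 4 UPR genes lower in all Dox than in all control libraries compare with 17.1% of all genes and the 1 higher with 16.1%. The 3 genes higher in all Tc libraries than in the controls compare with 15.8% of all genes, and 0 UPR genes were lower there, against 14.9%. Between the drugs, 3 (Xbp1, Sdf2l1 and Derl3) were lower in all Dox libraries, against 12.4% of all genes, and Herpud1 was higher, against 12.2%. The median log2 fold change of the 10 genes was -0.41 for Dox against control, 0.26 for Tc against control and -0.55 for Dox against Tc, while the median over all genes was 0.00, 0.00 and -0.02.

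**Figure D1:**
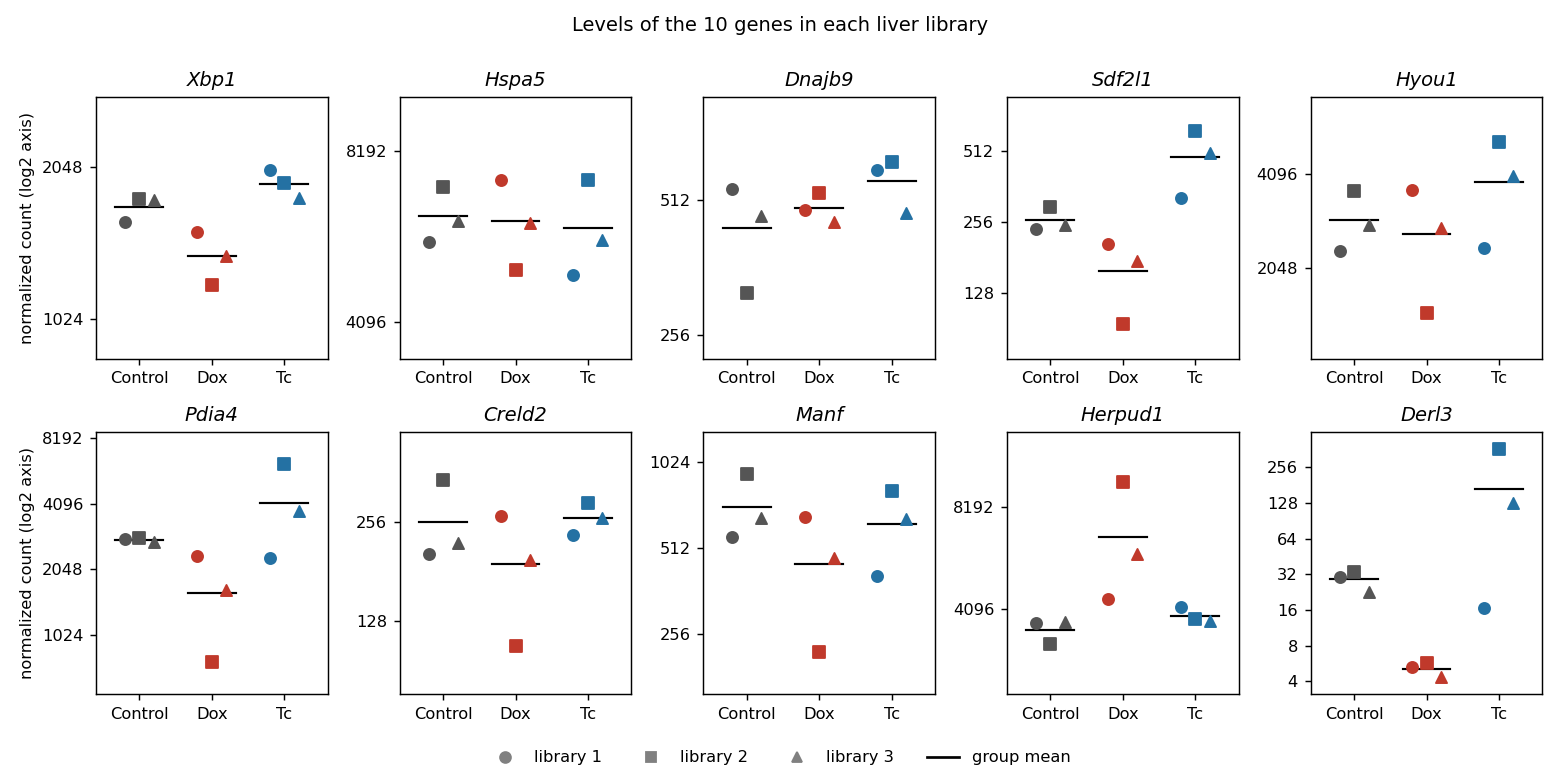
Normalized counts (log2 axis) of the 10 UPR genes in each library, by group; circles, squares and triangles are libraries 1, 2 and 3 and the bar is the group mean. Dox library 2 is the lowest of all 9 for 6 genes and Tc library 2 the highest for 6, with library 3 of the group between the others for most genes.

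Xbp1 (ENSMUSG00000020484, chr11:5520659-5525893, plus strand) encodes the transcription factor whose mRNA is spliced by Ire1, and counts per gene do not separate the spliced from the unspliced form. Its normalized counts were 1595, 1769 and 1765 in the controls, 1525, 1196 and 1368 with Dox and 2022, 1904 and 1777 with Tc. The 3 groups did not overlap, Dox being lowest and Tc highest, although the lowest Tc library lay close to the highest control. The Dox mean was 1363 ± 164 (SD, n = 3) against 1709.8 ± 99.2 in controls, a log2 fold change of -0.33 ± 0.13 (SE) with an adjusted p of 0.138 in limma. The Tc mean was 1901 ± 123, a log2 fold change of 0.15 ± 0.13 against controls with an adjusted p of 0.728. Between the drugs the log2 fold change was -0.48 (95% interval -0.78 to -0.19), with an adjusted p of 0.127 in limma, 0.0107 in DESeq2, and 0.755 in limma and 0.828 in DESeq2 without libraries 3.

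Among the chaperones of the ER lumen, Hspa5 (ENSMUSG00000026864, chr2:34771970-34777547, plus strand) encodes BiP, the Hsp70 that also binds the UPR sensors. Its counts were 5661, 7069 and 6179 in controls, 7289.8, 5072 and 6125 with Dox and 4953, 7293 and 5725 with Tc. The 3 groups overlapped throughout. Library 1 was the highest of the Dox group and the lowest of the Tc group, and library 2 the reverse. The log2 fold change was -0.04 ± 0.21 with Dox and -0.09 ± 0.21 with Tc against controls, and 0.04 between the drugs (95% interval -0.42 to 0.51 with all libraries and -0.89 to 0.92 without libraries 3). An increase of Hspa5 by over 1 on the log2 scale lay outside the intervals of both drugs against controls, with and without libraries 3.

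Dnajb9 (ENSMUSG00000014905, chr12:44205559-44210326, minus strand) encodes ERdj4, a J-domain co-chaperone of BiP. Its counts were 542, 318 and 472 in controls, 486, 533 and 458 with Dox and 599, 622 and 479 with Tc. Control library 2 was the lowest of the 9 and the groups overlapped. The log2 fold changes were 0.18 ± 0.20 with Dox (adjusted p = 0.581 in limma) and 0.38 ± 0.20 with Tc (0.529), and the interval of the difference between the drugs was -0.66 to 0.27. Without libraries 3 the adjusted p with Dox was 0.738 in limma for Dnajb9, 0.8498 for Hyou1, 0.676 for Creld2 and 0.644 for Manf.

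Hyou1 (ENSMUSG00000032115, chr9:44379490-44392369, plus strand) encodes the large Hsp110-type chaperone that exchanges nucleotide on BiP. Its counts were 2319, 3632 and 2815 in controls, 3658, 1475 and 2759.9 with Dox and 2375, 5191 and 4058 with Tc. Dox library 2 was the lowest and Tc library 2 the highest of all, and the Dox libraries spanned the whole control range. The log2 fold changes were -0.22 ± 0.39 with Dox and 0.36 ± 0.39 with Tc, with adjusted p-values of 0.726 and 0.791 in limma. Without Dox library 2 the Dox value was 0.15.

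Sdf2l1 (ENSMUSG00000022769, chr16:17130138-17132383, minus strand) encodes a partner of the ER J-domain proteins. Its counts were 238, 296 and 249 in controls, 206, 94.3 and 174 with Dox and 323, 622 and 501 with Tc. All Dox libraries lay under the controls and all Tc libraries over them, without overlap between any pair of groups. The Dox mean of 158 ± 57.7 compared with 261 ± 30.9 in controls (log2 fold change -0.79 ± 0.32, adjusted p = 0.149 in limma), and the Tc mean was 482 ± 150.4 (0.84 ± 0.32, adjusted p = 0.381). Between the drugs, Sdf2l1 was 3.08-fold lower with Dox, the log2 difference being -1.62 (95% interval -2.36 to -0.89). The adjusted p of this difference was 0.0841 in limma and 0.000279 in DESeq2, and 0.755 and 0.327 without libraries 3.

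Pdia4 (ENSMUSG00000025823, chr6:47796141-47813430, minus strand) encodes ERp72, a protein disulfide isomerase. Its counts were 2814, 2850.5 and 2751 in controls, 2353, 769.6 and 1651 with Dox and 2302, 6254 and 3805 with Tc. The controls were within 1.04-fold of each other, while the highest Dox library exceeded the lowest 3.06-fold and the highest Tc library exceeded the lowest 2.72-fold. The log2 fold change was -0.96 ± 0.44 with Dox (adjusted p = 0.190 in limma) and 0.44 ± 0.44 with Tc (0.773). Between the drugs it was -1.40 (95% interval -2.41 to -0.39), with an adjusted p of 0.155 in limma, 0.0297 in DESeq2 and 0.738 in DESeq2 without libraries 3. Without Dox library 2 the Dox value against controls was -0.51, and without Tc library 2 the Tc value was 0.08.

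Creld2 and Manf encode small ER-resident proteins that are released under ER stress. Creld2 (ENSMUSG00000023272, chr15:88819646-88826683, plus strand) had counts of 204, 341 and 221 in controls, 266, 108 and 196 with Dox and 233, 292 and 262 with Tc. The groups overlapped, with Dox libraries 2 and 3 under the control range and all Tc libraries within it. The log2 fold change was -0.48 ± 0.32 with Dox (adjusted p = 0.353 in limma) and 0.07 ± 0.32 with Tc (0.962).

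Manf (ENSMUSG00000032575, chr9:106838312-106891979, minus strand) had counts of 561, 932 and 651 in controls, 660.2, 222 and 475 with Dox and 411, 809 and 649 with Tc. Dox library 2 was again the lowest, and the other libraries of all groups overlapped. The log2 fold change was -0.76 ± 0.41 with Dox (adjusted p = 0.253 in limma) and -0.22 ± 0.41 with Tc (0.893). Exons of Manf overlap those of Rbm15b on the same strand and of Dcaf1 on the other, with mean counts of 359 and 431. Whether strand was used in counting is not given in the sources used here. How reads in the overlapping exons were assigned is not known, and the Manf values may be affected.

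The remaining genes act in ERAD, which returns misfolded proteins to the cytosol. Herpud1 (ENSMUSG00000031770, chr8:94386438-94395377, plus strand), the gene with the ERSE-II match, encodes Herp, a membrane scaffold of the Hrd1 ligase. Its counts were 3728, 3219 and 3737 in controls, 4389.9, 9745 and 5933 with Dox and 4151, 3815 and 3767 with Tc. All Dox libraries exceeded all controls and all Tc libraries, with Dox library 2 far over the others, and the Tc libraries lay just over the controls. The Dox mean was 6689.5 ± 2757 against 3561 ± 297 in controls, a log2 fold change of 0.83 ± 0.26 with an adjusted p of 0.0816 in limma and 0.0126 in DESeq2, and of 0.578 and 0.390 without libraries 3. Without Dox library 1 the value was 1.10 (adjusted p = 0.0151 in limma), and without Dox library 2 it was 0.52 (0.0456). The Tc value against controls was 0.14 ± 0.26, and the difference between the drugs was 0.70 (95% interval 0.10 to 1.29, adjusted p = 0.188 in limma).

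Derl3 (ENSMUSG00000009092, chr10:75893413-75895941, plus strand) encodes a stress-responsive member of the derlin family of ER membrane proteins and had the lowest level of the 10 genes in every group. Its counts were 30.7, 33.6 and 22.9 in controls, 5.26, 5.75 and 4.40 with Dox and 16.6, 363 and 128 with Tc. The Dox values rested on 5 reads in each library, and the Tc values on 17, 404 and 152. The Dox libraries lay close together under all others, whereas the Tc libraries ran from under the controls to over 10 times the control level in library 2. Against controls, Derl3 was 4.86-fold lower with Dox on the log2(count + 1) scale, a log2 fold change of -2.28 ± 0.90 with an adjusted p of 0.139 in limma and 0.0288 in DESeq2, and of 0.616 and 0.430 without libraries 3. The Tc value was 1.66 ± 0.90 (adjusted p = 0.531 in limma and 0.0488 in DESeq2), and 0.68 without Tc library 2. Between the drugs the log2 difference was -3.94 (95% interval -5.99 to -1.89), with an adjusted p of 0.0983 in limma and 1.88e-06 in DESeq2, and of 0.755 and 0.0259 without libraries 3. The difference was -2.96 without Tc library 2 (adjusted p = 0.266 in limma) and -5.15 without Tc library 1 (0.00808), and the DESeq2 estimate was -5.05. This was the only UPR difference that DESeq2 called without libraries 3.

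Plasma cells also use Derl3, and the summed B and plasma cell markers (9 genes) were 123 to 235 in controls, 34.5 to 76.9 with Dox and 72.3 to 140.3 with Tc. The plasma cell markers Mzb1 and Tnfrsf17 were at or near 0 everywhere, with at most 4.23 and 1.80. In Tc library 2, where Derl3 was highest, Jchain was at 4.50, against 7.41 to 14.0 in controls.

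**Figure D2:**
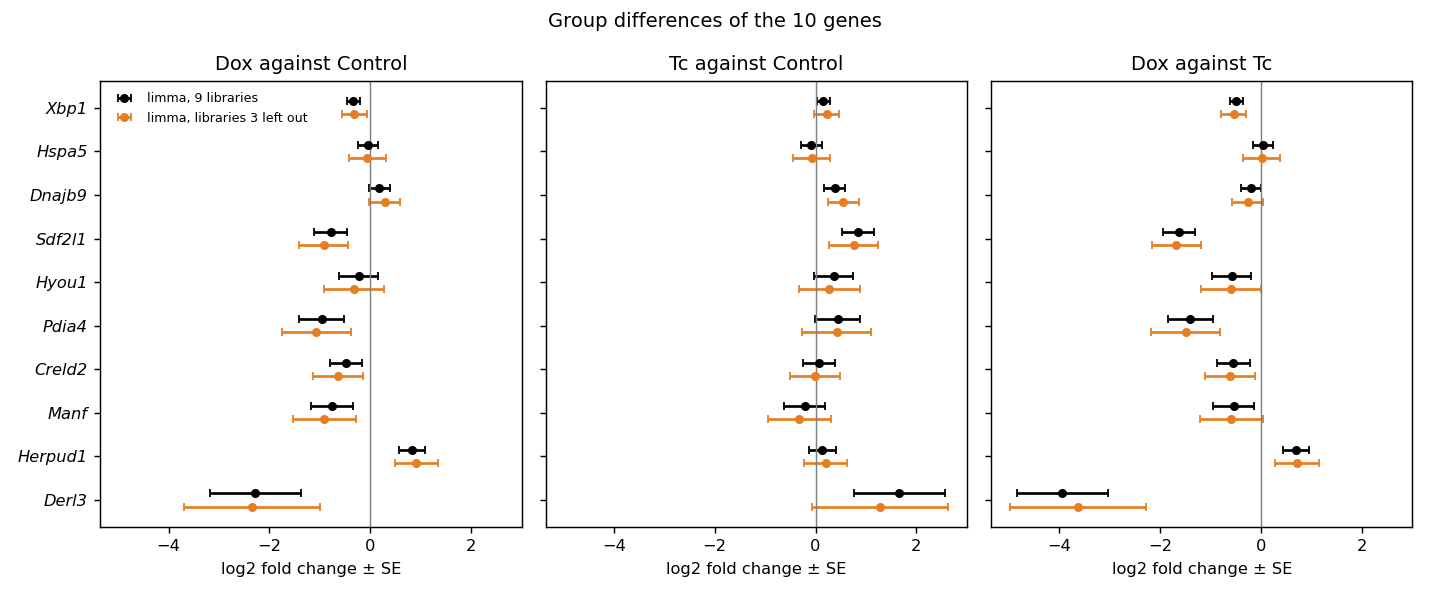
Log2 fold change and SE from limma for the 10 UPR genes in the 3 comparisons, with all 9 libraries (black) and without library 3 of each group (orange). The estimates differ little between the fits while the SE is larger without libraries 3.

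Levels of different genes were compared as normalized counts per kb of exon. In controls the order ran from Herpud1 (1526 ± 127) and Hspa5 (1490.4 ± 168), whose libraries overlapped, to Pdia4 (1169 ± 20.9), which stood apart from both neighbours. Xbp1 (526) and Hyou1 (404) followed and overlapped with each other, as did, in turn, Sdf2l1 (236), Manf (203), Creld2 (187) and Dnajb9 (174), with Derl3 (14.6) far under the rest. With Dox, Herpud1 (2867 ± 1182) stood clear of Hspa5 (1457 ± 262), and Pdia4 (663 ± 331) overlapped with Xbp1. With Tc, Pdia4 had the highest mean (1718 ± 832) but overlapped with Herpud1 (1676).

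Across libraries, most of the 10 genes varied together, and Herpud1 varied in the opposite sense. The median log2 difference of the 10 genes from the control mean was 0.01 in Dox library 1, -1.08 in Dox library 2 and -0.33 in Dox library 3, and -0.18, 0.38 and 0.11 in Tc libraries 1 to 3. Dox library 2 was the lowest of the 9 libraries for Xbp1, Sdf2l1, Hyou1, Pdia4, Creld2 and Manf, and Tc library 2 was the highest for Hspa5, Dnajb9, Sdf2l1, Hyou1, Pdia4 and Derl3. Over all genes tested, Dox library 2 was lowest for 32.1% and Tc library 2 highest for 9.45%. As a description over the 9 libraries, of which libraries 3 are mostly intermediate, the median Pearson r of the 45 gene pairs was 0.57 (Spearman's rho 0.48), and 33 pairs were above 0. It was 0.61 without libraries 3 and 0.18 without the second libraries of Dox and Tc. Pdia4 was closest to Sdf2l1 (r = 0.95), while the r of Herpud1 was negative with 8 of the other 9 genes, Dnajb9 being the exception.

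**Figure D3:**
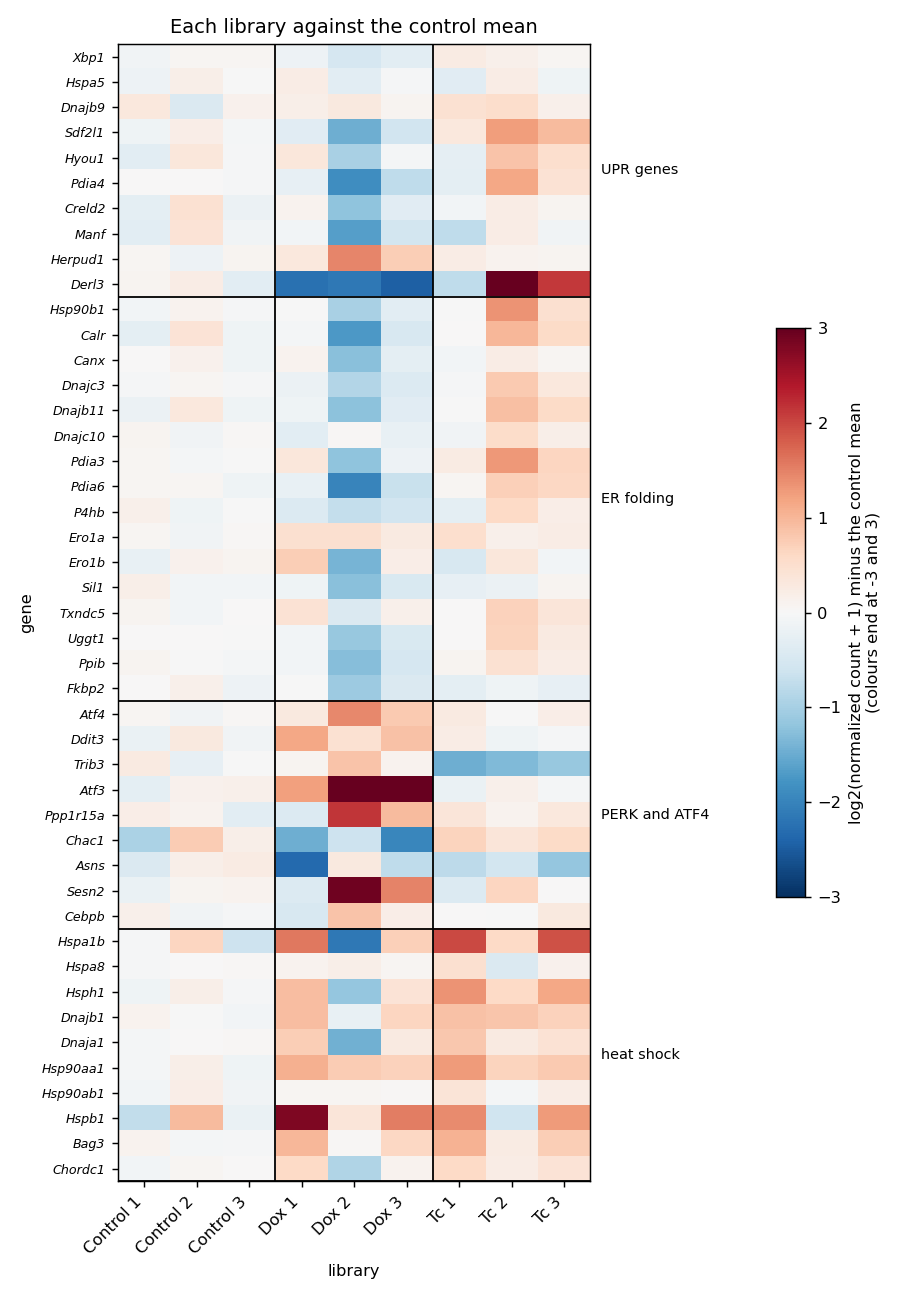
Difference of log2(normalized count + 1) from the control mean for the UPR genes, ER folding genes, genes of the PERK and ATF4 arm and cytosolic heat shock genes (rows) in each library (columns); blue is lower, red higher. Dox library 2 is low for ER folding genes and high for Herpud1, Atf3 and Sesn2, and Tc library 2 is high for ER folding genes.

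The wider ER folding list (16 chaperones, isomerases and oxidases) had 0 genes called by limma and by edgeR in each comparison, and 4, 0 and 9 at an unadjusted limma p under 0.05 for Dox against control, Tc against control and Dox against Tc. DESeq2 called 0, 0 and 6, and 0, 0 and 0 without libraries 3. For this and the following lists, 29.1%, 11.7% and 21.7% of all genes had an unadjusted limma p under 0.05. DESeq2 called 18%, 2.86% and 8.79% of all genes, and limma 8.41%, 0.182% and 0.231%. The list's median log2 fold change was -0.50 with Dox, 0.31 with Tc and -0.80 between the drugs. Dox library 2 was the lowest of all libraries for 14 of the 16 genes and Tc library 2 the highest for 12. The isomerase Pdia6 had counts of 2937, 2953 and 2589.8 in controls, 2413, 712 and 1775 with Dox and 2962, 4615 and 4342 with Tc, a log2 fold change of -0.96 ± 0.40 with Dox and -1.43 ± 0.40 between the drugs (adjusted p = 0.155 and 0.133 in limma). Calreticulin (Calr) had log2 fold changes of -0.76 ± 0.44 and -1.29 ± 0.44 in the same comparisons. With Tc against controls, the largest values were those of the isomerase Pdia3 (0.73 ± 0.39) and the ER Hsp90 Hsp90b1 (0.60 ± 0.36), both with Tc library 2 far highest at 7449 and 15232.

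The 6 sensor and transducer genes had 0 calls by limma and edgeR in each comparison and 0, 1 and 2 at an unadjusted limma p under 0.05. Atf6 had the largest difference between the drugs, 0.69 ± 0.20 (adjusted p = 0.140 in limma and 0.0323 in DESeq2, and 0.755 and 0.841 without libraries 3), with counts of 1224, 1846 and 1405 with Dox and 1037, 814 and 895 with Tc. Its values against controls were 0.37 ± 0.20 with Dox and -0.32 ± 0.20 with Tc. The kinase and nuclease Ern1 was at -0.58 ± 0.24 between the drugs, the site 2 protease Mbtps2 at 0.38 ± 0.24 with Dox and Atf6b at -0.29 ± 0.18 with Tc.

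Of 13 ERAD genes, limma called 1 with Dox, which was lower, and 0 in the other comparisons, where 1 (Tc against control) and 4 (Dox against Tc) had an unadjusted p under 0.05 and DESeq2 called 0 and 2. This gene was the ERAD lectin Os9, with counts of 4289, 3986 and 3529 in controls, 2397, 2141 and 2266 with Dox and 2843, 3450.5 and 3566 with Tc. All Dox libraries were lower than all others, by -0.79 ± 0.14 against controls (adjusted p = 0.0181 in limma and 2.81e-06 in DESeq2, and 0.559 and 0.0905 without libraries 3) and by -0.53 ± 0.14 against Tc (0.128 in limma). The ligase adaptor Sel1l was at -0.58 ± 0.27 between the drugs. With Tc the segregase Vcp was at 0.51 ± 0.21 and Edem2 at 0.27 ± 0.17. The median over the list was 0.04 with Dox, 0.07 with Tc and -0.18 between the drugs.

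Limma called 0 of 16 genes of translocation and signal peptide processing and 0 of 17 genes of ER to Golgi transport in each comparison, as did edgeR. An unadjusted limma p under 0.05 was found for 2, 1 and 7 genes of the first list and 3, 1 and 7 of the second. The shares of all genes were 29.1%, 11.7% and 21.7%. DESeq2 called 0, 0 and 0 of the first and 2, 0 and 1 of the second. The signal peptidase subunit Sec11c was at -0.93 ± 0.31 with Dox and -0.97 ± 0.31 between the drugs, Spcs2 at -0.41 ± 0.24 with Dox and the translocon subunit Sec61b at -0.77 ± 0.32 between the drugs. With Tc the translocon-associated Ssr1 and Ssr3 were at 0.75 ± 0.33 and 0.52 ± 0.32. The cargo receptor partner Mcfd2 came closest to the threshold with Dox, at -0.99 ± 0.26 (adjusted p = 0.0505 in limma), and was at -0.76 ± 0.26 between the drugs. Tmed10 was at -0.45 ± 0.16 with Dox, Kdelr2 at -0.63 ± 0.28 between the drugs, and Sec24d and Arfgap3 at -0.61 ± 0.20 and -0.39 ± 0.24 with Tc.

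In the PERK and ATF4 arm, limma called 1 of 9 genes with Dox (Atf3), 0 with Tc and 1 between the drugs (Trib3), each higher with Dox, and 4, 1 and 5 had an unadjusted p under 0.05. DESeq2 called 4, 1 and 3, and edgeR 1, 0 and 0. The list's median log2 fold change was 0.83 with Dox (7 of 9 genes positive), 0.09 with Tc and 0.69 between the drugs. The stress factor Atf3 had counts of 6.35, 8.85 and 8.90 in controls, 20.0, 270.3 and 122 with Dox and 6.84, 8.99 and 7.58 with Tc, a log2 fold change of 3.31 ± 0.78 with Dox (adjusted p = 0.0380 in limma and 6.61e-06 in DESeq2, and 0.573 and 0.0216 without libraries 3). All Dox libraries were higher than all others, but the size rested on libraries 2 and 3. The pseudokinase Trib3 had counts of 201, 142 and 165 in controls, 177, 306 and 181 with Dox and 60.5, 66.5 and 75.8 with Tc. It was the Tc group that stood apart, at 1.65 ± 0.24 for Dox against Tc (adjusted p = 0.0498 in limma and 1.66e-06 in DESeq2, and 0.755 and 0.0270 without libraries 3). The limma call was lost with TMM factors (0.0555) and with the same total per library (0.0769). For Tc against control Trib3 was at -1.30 ± 0.24 (adjusted p = 0.0898 in limma and 0.000796 in DESeq2, and 1 and 0.567 without libraries 3). The 4 DESeq2 calls with Dox were Atf3, Atf4, Sesn2 and Chac1, and only Chac1 was lower. Atf4 was at 0.84 ± 0.26 with Dox (adjusted p = 0.0747 in limma and 0.0139 in DESeq2). Sesn2 was at 1.34 ± 0.70 (0.239 in limma and 0.0245 in DESeq2), with Dox library 1 under all controls. The glutathione-degrading enzyme Chac1 was chosen after its values were seen. Its counts were 27.5, 92.9 and 61.0 in controls, 19.0, 34.5 and 13.2 with Dox and 86.9, 70.1 and 80.9 with Tc. Its log2 fold change was -1.35 ± 0.46 against controls (adjusted p = 0.101 in limma and 0.0243 in DESeq2) and -1.89 ± 0.46 against Tc (0.110 and 0.00622), and without libraries 3 neither tool called it. Asparagine synthetase (Asns) was at -0.82 ± 0.56 with Tc.

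The cytosolic heat shock list, which serves folding outside the ER, had 1 of 10 genes called by limma with Dox and 0 in the other comparisons, where 3 (Tc against control) and 0 (Dox against Tc) had an unadjusted p under 0.05 and DESeq2 called 1 and 0. Hsp90aa1 had counts of 218, 260.1 and 210 in controls, 476, 389 and 367 with Dox and 554, 364 and 393 with Tc. Both drug groups lay over all controls, at 0.83 ± 0.19 with Dox (adjusted p = 0.0338 in limma and 0.00304 in DESeq2, and 0.566 and 0.374 without libraries 3) and 0.91 ± 0.19 with Tc (0.133 in limma and 0.00346 in DESeq2, and 1 and 1 without libraries 3). With Tc, Hsph1 was at 1.03 ± 0.47 and Hspa1b at 1.497 ± 0.88, and between the drugs they were at -0.97 ± 0.47 and -1.45 ± 0.88. The list's median difference from the control mean was 0.93, -0.10 and 0.52 in Dox libraries 1 to 3, an order opposite to that of the PERK and ATF4 arm, which was at -0.40, 0.86 and 0.78.

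**Figure D4:**
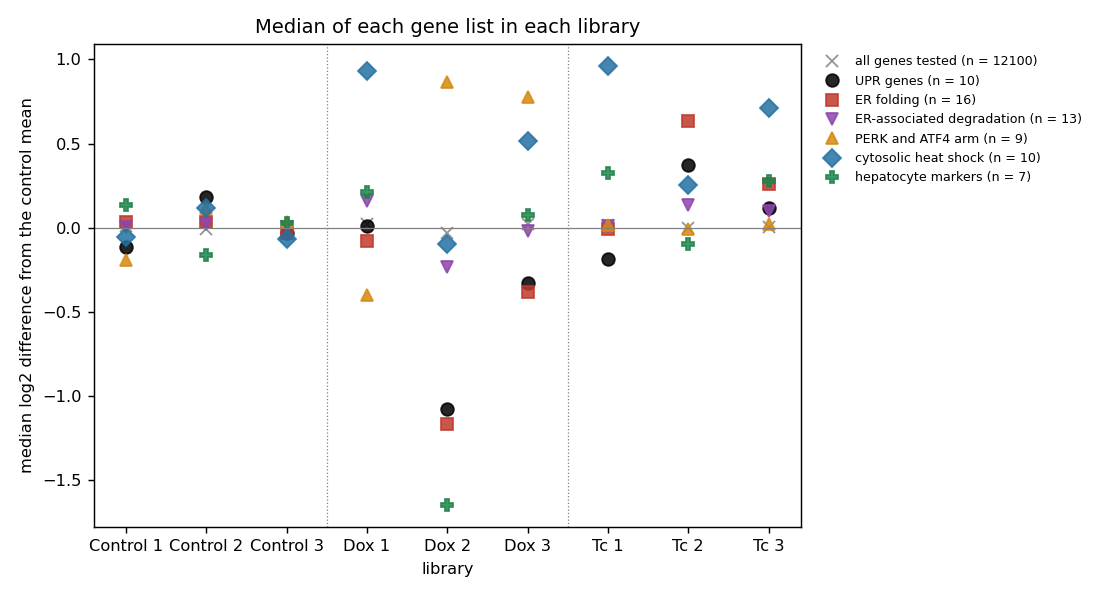
Median difference from the control mean (log2) of each gene list in each of the 9 libraries. The UPR and ER folding genes are at -1.08 and -1.17 in Dox library 2 and at 0.38 and 0.63 in Tc library 2, while all genes tested stay within 0.03 of 0.

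The genes outside the list whose log2 levels over the 9 libraries were most like the mean standardized profile of the 10 UPR genes, among 9369 genes with a mean of at least 50, were Hsp90b1 (r = 0.98, rho = 0.98), Krtcap2, Stt3a, Gstp3, Dnajc3, Slc35b1, Dnajb11, Dhdds, Atp11a and Sept11 (r = 0.97 to 0.98). Hsp90b1, Dnajc3 and Dnajb11 belong to the ER folding list. Krtcap2 and Stt3a are subunits of the oligosaccharyltransferase, and Dhdds makes the dolichol on which its glycans are built. Without libraries 3 the r of these genes were 0.98 to 0.99. In each of the 10 genes Dox library 2 was the lowest and Tc library 2 the highest, for example at 3074 and 15232 normalized counts of Hsp90b1 and at 61.0 and 594 of Atp11a.

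Markers of the cells of the liver also differed between these libraries and groups. The hepatocyte markers (7 genes) had a median difference from the control mean of 0.21, -1.65 and 0.08 in Dox libraries 1 to 3, with Alb at 607452, 255547 and 456395 and the tyrosine-degrading enzyme Tat at 13817, 159364 and 63627. In Tc libraries 1 to 3 the median was 0.33, -0.10 and 0.28. The summed level of Kupffer cell markers (6 genes) was 5933 to 11795 in controls, 1591 to 5594 with Dox and 2808 to 5769.7 with Tc. Neutrophil markers (8 genes) summed to 47.6 to 431, 3.16 to 135 and 12.7 to 112, sinusoidal endothelium (6 genes) to 4393 to 4544, 2171 to 2806 and 3327 to 3812, and stellate cell markers (6 genes) to 3106 to 3364, 2454.5 to 3598 and 3008 to 3485. Erythroid markers (5 genes) summed to 1229 to 4692, 648 to 2271 and 1089.9 to 1928, and cholangiocyte markers (5 genes) to 199.9 to 243, 148 to 372 and 255 to 335. Of the pancreatic acinar markers 4 were found, 3 of them at 0 in every library and Cela1 at 23.0 to 120.1. Of these markers, 40 were among the genes tested. With Dox, limma called 11 of the 40 (1 B and plasma cell, 2 Kupffer, 1 neutrophil, 3 endothelial, 1 cholangiocyte, 1 stellate and 2 erythroid). The 11 were all lower but the cholangiocyte gene, and limma called 8.41% of all genes. DESeq2 called 22 with Dox, against 18% of all genes. With Tc, limma called 0 and had 11 at an unadjusted p under 0.05, against 11.7% of all genes. DESeq2 called 5 with Tc, against 2.86%. Without libraries 3, DESeq2 called 4 with Dox and 0 with Tc. The part of these differences in the UPR values was not tested.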

How the data were processed

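The authors trimmed single-end reads from a directional kit with cutadapt, aligned them to mm10 with STAR 2.7.11ac, counted them with HTSeq 2.0.5 and normalized them with DESeq2 1.42.0. What the authors deposited is a signal: read counts per gene, each divided by the size factor of its library (normalized counts). The steps between low values gave whole reads for 100% of values (within 0.01). Coordinates are GRCm38.

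Log2(normalized count + 1) was tested with limma 3.58.1 (R 4.3.3, trend, 1 model of 9 libraries, Benjamini-Hochberg over the 12100 genes whose mean reached 10). DESeq2 1.42.0 and edgeR 4.0.16 on recovered reads were alternatives, beside other pseudocounts, filters, scalings, weights, blocks and libraries left out. The statistics were tested on simulated data with large differences, the same dispersion for all genes and independently drawn libraries. That simulation cannot show how the tests behave with smaller differences or with libraries that are not independent. P-values measure only the spread between these libraries. The 10 genes and all lists were chosen with earlier results of these data known. All 10 were named, with called genes of each list (up to 5) or else the 2 with the largest difference, and the 10 genes of most similar profile.

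Deviations of same-numbered Dox and Tc libraries from their group means had r = 0.29, 0.32 and 0.18. Control libraries had -0.08 to 0.06 with same-numbered libraries of either drug. Differently numbered libraries were not compared, so these values cannot decide whether the numbers pair the Dox and Tc libraries. The numbers come from the sample titles. Since libraries 3 mostly lay between libraries 1 and 2 for genes more than 2-fold apart between these, the 3 correlations may not be independent.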

Additional observations from a re-analysis of the deposited data

How the results depend on the processing

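The count of UPR genes called was 0 in each comparison in limma with pseudocounts of 0.1 or 8, no filter or a mean of at least 50, the same total per library, TMM factors, a fold change over 2, the replicate block, and libraries 3 left out, and in edgeR. It was 2, 1 and 4 (Dox against control, Tc against control, Dox against Tc) in DESeq2, 0, 0 and 1 in DESeq2 without libraries 3, and 6, 2 and 8 with array weights, whose fit stopped before converging. In the fit of only the groups compared it was 1 for Dox against control (Derl3), and with the replicate block added to that fit it was 0 for Dox against control and 1 for Tc against control (Sdf2l1, adjusted p = 0.0371 in limma). In the model of all 9 libraries the block changed no call of a UPR gene. With each library left out in turn it ranged from 0 to 1 for Dox against control (Herpud1 without Dox library 1 or 2, Derl3 without Tc library 1), was 0 for Tc against control, and ranged from 0 to 5 for Dox against Tc. The 5, without Dox library 1, were Xbp1, Sdf2l1, Pdia4, Herpud1 and Derl3. Without Dox library 2 it was 1 (Sdf2l1), and without Tc library 1 it was 1 (Derl3). The cause was not tested. Shares of all genes with array weights, with only the groups compared and with single libraries left out are not given here. The counts from these fits therefore cannot be read as particular to the UPR genes.

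The median log2 fold change of the 10 genes kept its sign under every alternative, from -0.64 to -0.18 for Dox against control, 0.13 to 0.28 for Tc against control and -0.85 to -0.23 for Dox against Tc. Scaling to the same total moved the median of all genes to 0.17 for Dox against control and 0.16 for Dox against Tc, and the UPR median to -0.23 and -0.37, so that relative to all genes it hardly moved.

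Of 690 single-gene values under alternatives, 14 changed sign, all of them small. Hspa5 with Dox was 0.13 with the same total. Creld2 with Tc was -0.016 in limma and -0.055 in DESeq2 without libraries 3. The others changed sign when 1 library was left out: with Dox, Hspa5 ranged from -0.17 to 0.090, Dnajb9 from -0.041 to 0.34 and Hyou1 from -0.51 (without Dox library 1) to 0.15 (without Dox library 2). With Tc, Hspa5 ranged from -0.24 to 0.042, Creld2 from -0.072 to 0.30 and Manf from -0.43 to 0.054, and between the drugs Hspa5 ranged from -0.085 to 0.19. Depth limits Derl3 with Dox, at 5 reads per library.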
